A study of Mus musculus with 6 samples.

Results

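The 7 genes described here, Hal, Uroc1, Amdhd1, Ftcd, Prodh, Prodh2 and Aldh4a1, encode the liver enzymes that break down histidine and proline, and they were taken by gene symbol from the 55487 genes of the deposited tables. They were selected on earlier results of these same libraries, in which mutant and control livers had already been compared, so their differences between the groups are given as a description and carry no test of their own. All 7 had 1 row each and passed the filter on low counts, which left 14286 genes for testing.

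The mutant livers came from male mice labelled RXRa f/f Alb cre+/-, and the control livers from male mice labelled Alb cre +/-, with 3 libraries in each group. All mice carried the label C57/Bl6J and were on a high-fat diet, and no source used here gives their age. Both groups therefore carry the Cre transgene, whose albumin promoter is active in hepatocytes, the cells in which the Rxra allele is meant to be changed. The design text names the change as S65A, while the genotype label gives a floxed allele, and the titles call the controls WT and the mutants Cre. The gene tables cannot show which form of the RXRα protein the mutant transcripts encode.

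Histidine is broken down in liver cells in a linear route. Histidine ammonia-lyase (Hal) removes ammonia to give urocanate, urocanate hydratase (Uroc1) and imidazolonepropionase (Amdhd1) turn this into formiminoglutamate, and the bifunctional enzyme Ftcd passes the formimino group to tetrahydrofolate and leaves glutamate. Proline is oxidised in mitochondria by proline dehydrogenase (Prodh), hydroxyproline by its relative Prodh2, and the products of both are oxidised further by the dehydrogenase Aldh4a1, which yields glutamate on the proline side. Hal and much of amino acid breakdown are known to be concentrated in hepatocytes near the portal vein.

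Hal and Amdhd1 lie next to each other on mouse chromosome 10. In mm10 coordinates, taken from GENCODE mouse release 21, Hal (ENSMUSG00000020017.14) spans bases 93488768 to 93519304 on the plus strand, and Amdhd1 (ENSMUSG00000015890.2) spans 93523338 to 93540033 on the minus strand. The genes point towards each other, with 4033 bases and 0 annotated genes between their ends. Ftcd (ENSMUSG00000001155.13) is on the same chromosome at 76575648 to 76590338, on the plus strand. Uroc1 (ENSMUSG00000034456.15) occupies 90333284 to 90364551 of chromosome 6, plus strand. Among the proline genes, Prodh (ENSMUSG00000003526.12) spans 18060357 to 18090203 of chromosome 16 on the minus strand. Prodh2 (ENSMUSG00000036892.12) spans 30493622 to 30513402 of chromosome 7 and Aldh4a1 (ENSMUSG00000028737.15) 139622866 to 139649690 of chromosome 4, both on the plus strand.

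Promoter sequences are shown for Hal and Uroc1, the consecutive steps that differed most in their response, and for Prodh2, which shares a motif with Uroc1. All 7 genes had 1 promoter entry in the RefSeq table (build GRCm38.p6), and the 250 bases before each RefSeq start were searched on both strands. RXR partners bind variants of the half-site AGGTCA. This exact hexamer was found in 2 of the 7 windows, those of Uroc1 and Prodh2, and in 14% of all 32851 windows of the same length. The direct repeat of this half-site with 1 base between (DR1) was in 0 of the 7 and in 0.0335% of all windows. TATAAA was in the windows of Hal and Ftcd and in 12.4% of all, and CCAAT was in 4 of the 7 (Hal, Uroc1, Prodh2 and Aldh4a1) and in 33.8% of all. These are matches of letters and not sites of binding. The runs below are on the plus strand, end at the base before the GENCODE start of the gene, and are in lower case except for these motifs on either strand.
Hal, chr10:93488518-93488767: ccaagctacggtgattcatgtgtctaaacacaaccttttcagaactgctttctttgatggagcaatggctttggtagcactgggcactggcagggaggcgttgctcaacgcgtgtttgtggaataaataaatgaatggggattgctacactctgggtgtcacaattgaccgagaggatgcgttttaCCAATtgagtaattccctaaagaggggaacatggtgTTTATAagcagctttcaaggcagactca
Uroc1, chr6:90333039-90333283: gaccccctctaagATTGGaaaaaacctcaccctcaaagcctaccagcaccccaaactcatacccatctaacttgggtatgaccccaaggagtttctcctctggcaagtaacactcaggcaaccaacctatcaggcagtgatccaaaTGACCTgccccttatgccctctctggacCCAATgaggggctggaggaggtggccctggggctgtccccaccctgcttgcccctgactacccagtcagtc
Prodh2, chr7:30493408-30493621: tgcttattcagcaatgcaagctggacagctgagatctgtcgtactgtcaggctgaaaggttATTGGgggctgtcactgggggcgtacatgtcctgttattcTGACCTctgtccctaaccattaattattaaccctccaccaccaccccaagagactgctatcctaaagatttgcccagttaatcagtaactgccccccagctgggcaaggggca
The capitals TTTATA in Hal are the TATA motif on the other strand and begin 28 bases before the end of the run. TGACCT is the half-site on the other strand and begins 99 bases before the end of the run in Uroc1 and 113 in Prodh2. CCAAT and ATTGG are the CCAAT motif on either strand. The Uroc1 window held 0 CpG dinucleotides, those of Prodh2 and Ftcd 2 and 3, Hal 6, Amdhd1 8, Aldh4a1 10 and Prodh 11, against a median of 6 over all windows.

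The libraries held 35847386 to 43162557 estimated counts. Levels are given as CPM (estimated counts scaled to a common library size with TMM factors), which sets the typical gene equal in both groups, and as TPM, which divides by gene length and fixes each library's sum. A gene was called where the adjusted p of edgeR's quasi-likelihood test was under 0.05. Of the 14286 tested genes 6.64% were called higher and 6.82% lower in the mutants. Over all tested genes the median fold change (log2) was -0.40 at library totals and -0.48 in limma on log2(TPM + 1), against 0 after TMM, so each fold change below is relative to the typical gene. Of all calls 49.3% were higher ones after TMM, 6.1% at library totals and 2.65% on TPM. Rxra itself had 700, 522 and 609 CPM in mutant replicates 1 to 3, against 501, 471 and 414 CPM in control replicates 1 to 3, and was not called (log2 fold change 0.40 ± 0.13 SE, edgeR adjusted p = 0.0724; -0.20 in limma on TPM). Rxra was called higher in edgeR with no filter on low counts (0.40, edgeR adjusted p = 0.0356) and without mutant replicate 2 (0.50, edgeR adjusted p = 0.0388). It was also called higher in DESeq2 (0.40, DESeq2 adjusted p = 0.0311). Whether the libraries come from separate animals is not stated, and p-values then cover only the spread among them, which may be technical.

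Relative to the typical gene, Hal at the head of the histidine route and the dehydrogenases Prodh and Prodh2 stood higher in the mutant livers, while Uroc1 and Aldh4a1 differed little. After TMM scaling 5 of the 7 genes were called higher (Hal, Amdhd1, Ftcd, Prodh and Prodh2), beside 6.64% of all tested genes, and 0 were called lower. Uroc1 and Aldh4a1 were not called. The median log2 fold change of the 7 was 0.60, against 0 over all tested genes, and since these libraries chose the genes nothing is read from either number. The count of 5 was 2 at library totals and 1 in limma on log2(TPM + 1), and it was 3 without control replicate 1 or control replicate 2.

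Hal had the largest difference of the 7. Its level was 482, 329 and 560 CPM in mutant replicates 1 to 3, against 124, 157 and 185 CPM in control replicates 1 to 3. The groups did not overlap, and mutant replicate 2 was the lowest of the mutants. The means were 457 ± 117 CPM in the mutants and 155 ± 30.7 CPM in the controls (SD, n = 3 each), 2.95-fold higher, with a log2 fold change of 1.56 ± 0.21 (SE). On TPM Hal had 200, 125 and 228 in mutant replicates 1 to 3, against 74.4, 94.7 and 113 in control replicates 1 to 3. The groups were apart on this scale too, and the log2 fold change was 0.94 ± 0.25 in limma.

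Uroc1, which acts on the product of Hal, did not follow it. It had 285, 289 and 342 CPM in mutant replicates 1 to 3, against 252, 330 and 316 CPM in control replicates 1 to 3, and the groups overlapped. The log2 fold change was 0.03 ± 0.13. On TPM the mutants were all lower, with 90.9, 84.4 and 107 against 116, 152 and 149 in the controls. The log2 fold change there was -0.56 ± 0.15 in limma, where Uroc1 was called lower, and -0.37 ± 0.13 at library totals, where it was not called. That limma fit called 7322 of its 11567 genes lower.

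Amdhd1 had 182, 181 and 220 CPM in mutant replicates 1 to 3, against 95.5, 120 and 133 CPM in control replicates 1 to 3. All mutant values were above all control values, with means of 195 ± 22.3 and 116 ± 18.9 CPM and a log2 fold change of 0.75 ± 0.14. At library totals it was 0.35 and no longer called, and on TPM it was 0.16, with 85.8, 78.2 and 102 TPM in the mutants overlapping 65.1, 81.7 and 92.2 TPM in the controls. Next to the gene pair, Lta4h, which lies on the Hal side and encodes the hydrolase that makes leukotriene B4, had a log2 fold change of 0.11 ± 0.11 (edgeR adjusted p = 0.527; -0.28 at library totals). Ccdc38, on the Amdhd1 side, stayed under 1 CPM in every library (0.31 to 0.654 CPM in the mutants and 0.0897 to 0.109 CPM in the controls). It was called higher by a narrow margin (log2 fold change 2.23 ± 0.63, edgeR adjusted p = 0.0499). The call was kept with RLE size factors and lost under every other alternative that gave a value, leaving out any one library included (adjusted p from 0.0522 to 0.205). Both were chosen for their position, after the values were seen.

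Ftcd, the enzyme that hands the histidine-derived one-carbon unit to folate, had the smallest difference among the called genes. It had 302, 347 and 324 CPM in mutant replicates 1 to 3, against 236, 250 and 249 CPM in control replicates 1 to 3. The groups did not overlap after TMM scaling, and the log2 fold change was 0.40 ± 0.09. On TPM the order turned round: the mutants had 167, 175 and 175 and the controls 189, 200 and 203, a log2 fold change of -0.19 ± 0.09 in limma. At library totals it was 0.01 ± 0.09. The call after TMM was lost on leaving out any one library except mutant replicate 1, with log2 fold changes of 0.38, 0.42 and 0.42 without control replicates 1 to 3 and 0.34 and 0.40 without mutant replicates 2 and 3.

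Among the proline enzymes Prodh differed most between the groups. It had 154, 144 and 151 CPM in mutant replicates 1 to 3, against 94.1, 87 and 79.1 CPM in control replicates 1 to 3. The groups were far apart, with means of 150 ± 4.79 and 86.8 ± 7.5 CPM and a log2 fold change of 0.79 ± 0.10, which was 0.39 ± 0.10 and still called at library totals. On TPM it was 0.19 ± 0.11 and not called, and the ranges met, with 80.3, 69.1 and 77 in the mutants against 71.2, 65.9 and 61 in the controls. Prodh overlaps Dgcr6 on the opposite strand. No source used here gives the strandedness of the libraries, so reads of the shared stretch cannot be told apart. Dgcr6 had 31 to 32.9 TPM in the mutants and 49.8 to 56.2 TPM in the controls.

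Prodh2, the hydroxyproline dehydrogenase, had 162, 163 and 196 CPM in mutant replicates 1 to 3, against 99.3, 118 and 126 CPM in control replicates 1 to 3. The groups did not overlap, and the log2 fold change was 0.60 ± 0.12. On TPM the means were alike, 125 ± 16.4 in the mutants and 125 ± 16 in the controls, a log2 fold change of 0.01 ± 0.15. The call was lost at library totals (0.20), at library totals without Mup genes (0.39) and in every limma fit on TPM. It was also lost without control replicate 1 (0.51) and without control replicate 2 (0.63).

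Aldh4a1, which takes the products of both dehydrogenases, had the highest CPM of the 3 proline genes and one of the smallest differences. It had 428, 426 and 457 CPM in mutant replicates 1 to 3, against 369, 365 and 387 CPM in control replicates 1 to 3. The groups did not overlap, but the log2 fold change of 0.23 ± 0.08 was not called. On TPM the mutants were all lower, at 139, 127 and 145, against 174, 172 and 186 in the controls. Aldh4a1 was called lower in limma there (-0.37 ± 0.10), as were 7322 of the 11567 genes in that fit. Overlapping it on the same strand are a microRNA gene listed at 0 and Gm21969, which had 0 to 18.2 estimated counts per library.

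**Figure D1:**
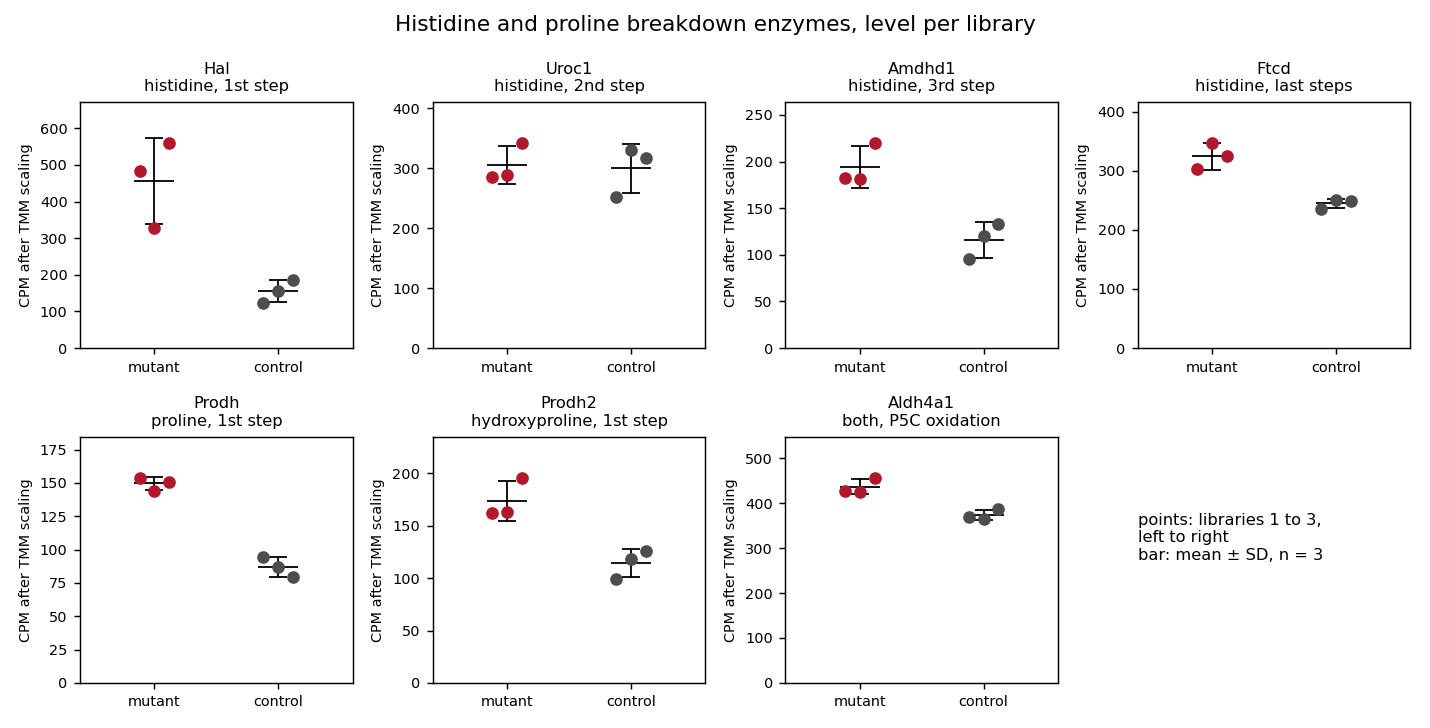
Level of each of the 7 enzymes in CPM after TMM scaling (y axis) in mutant (left) and control (right) livers. Points are libraries, bars the mean ± SD of 3 libraries. Every mutant library lies above every control library except for Uroc1, whose groups overlap. The genes were chosen on this contrast, and the share of all tested genes without overlap was not computed. On TPM every mutant library lies below every control library for Uroc1, Ftcd and Aldh4a1. The median log2 fold change over all tested genes was also below 0 on that scale (-0.48 in limma on log2(TPM + 1)).

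**Figure D2:**
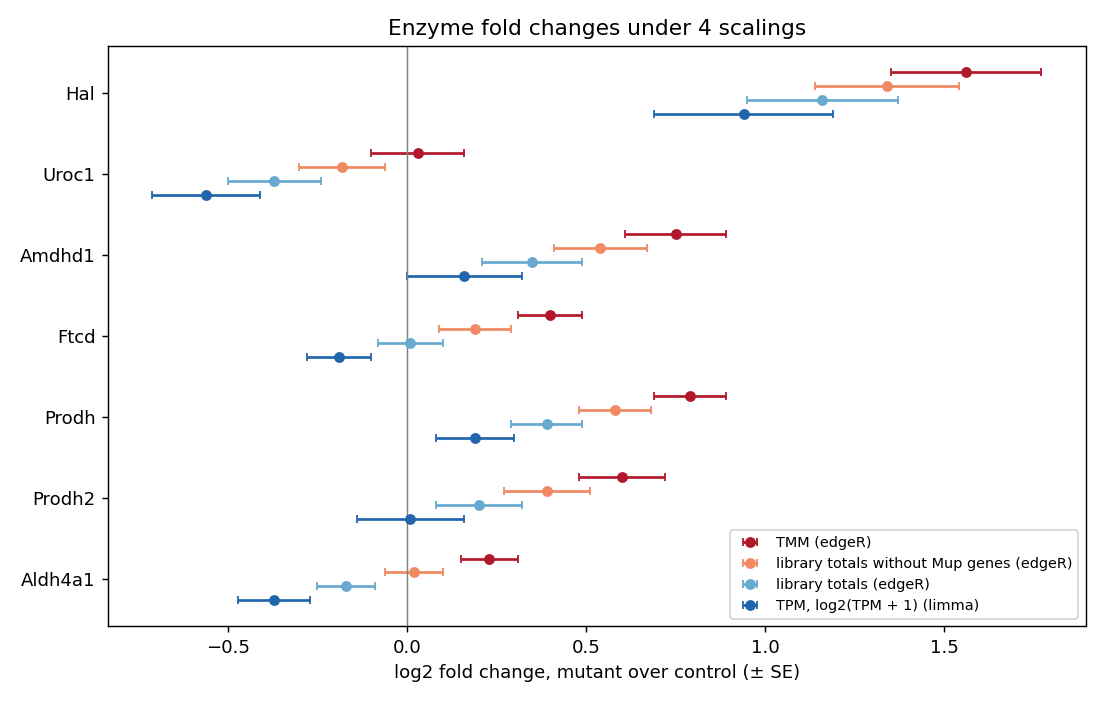
Log2 fold change of mutant over control (x axis, with its SE) for each enzyme (y axis) under 4 scalings. All 7 values move down together from TMM to TPM, Hal stays above 0 throughout (1.56 to 0.94), and Uroc1, Ftcd and Aldh4a1 are below 0 on TPM.

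Ratios between enzymes of the same library do not depend on how libraries are scaled to each other. Hal to Uroc1 stood at 2.2, 1.49 and 2.13 in mutant replicates 1 to 3, against 0.64, 0.621 and 0.761 in control replicates 1 to 3, taking TPM over TPM. There was thus more Hal than Uroc1 transcript in every mutant library and less in every control library, and the ratio was 2.85-fold higher in the mutants. Leaving out any one library gave log2 differences between 1.41 and 1.69.

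Uroc1 to Amdhd1 was close to parity in the mutants, at 1.06, 1.08 and 1.05, against 1.79, 1.87 and 1.61 in the controls. The mutants were all lower and spread little, with a mean of 1.06 ± 0.0155 in the mutants and 1.76 ± 0.128 in the controls (SD, n = 3 each). Amdhd1 to Ftcd overlapped between the groups, with 0.515, 0.446 and 0.58 in the mutants and 0.345, 0.407 and 0.455 in the controls.

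Prodh to Aldh4a1 was 0.577, 0.544 and 0.53 in the mutants, against 0.41, 0.383 and 0.328 in the controls. Every mutant library was above every control library, and the ratio was 1.48-fold higher in the mutants. Prodh2 to Aldh4a1 also stood apart, at 0.871, 0.876 and 0.986 against 0.618, 0.744 and 0.747 in the controls. Prodh2 to Prodh overlapped, from 1.51 to 1.86 in the mutants and from 1.51 to 2.28 in the controls. Where the groups stand apart, a ratio shows unequal change of the paired genes and not which of them changed. The genes were chosen on this contrast, and ratios of other gene pairs were not computed.

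**Figure D3:**
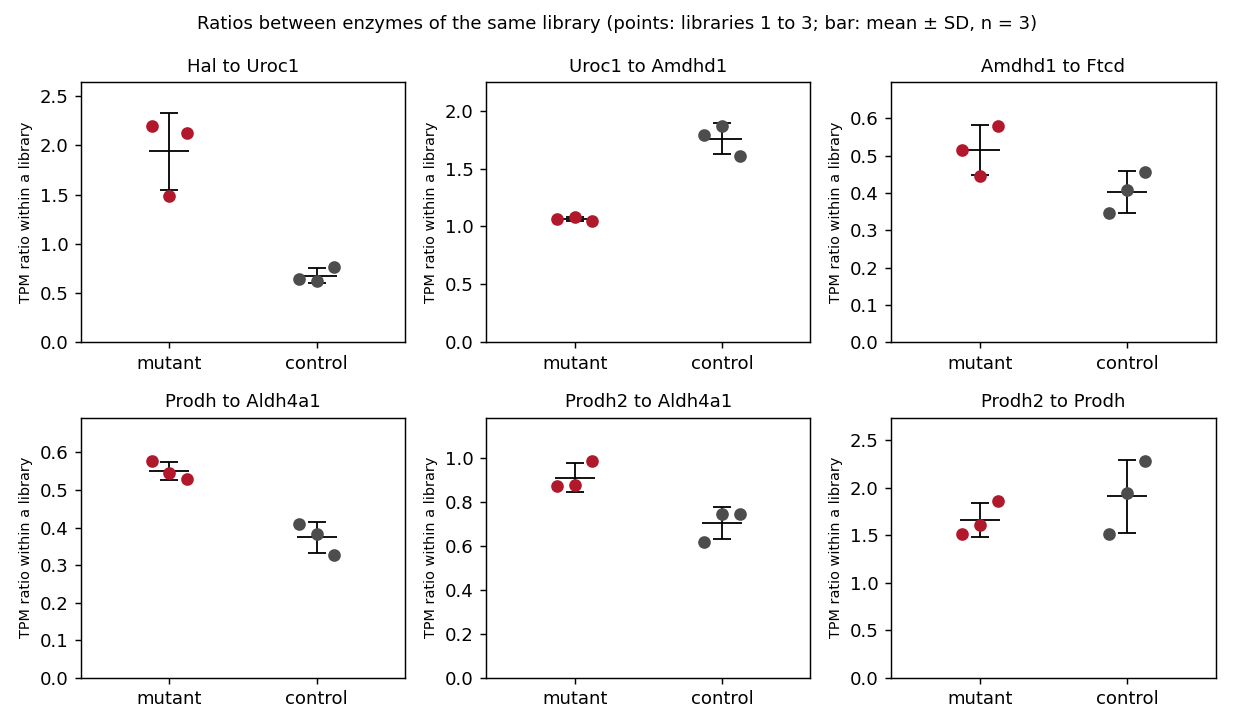
Ratio of the TPM of one enzyme to that of another in the same library (y axis) for 6 enzyme pairs, in mutant (left) and control (right) livers. Points are libraries, bars the mean ± SD of 3 libraries. Hal to Uroc1 runs from 1.49 to 2.2 in the mutants and from 0.621 to 0.761 in the controls, and 4 of the 6 ratios do not overlap between the groups. The genes were chosen on this contrast and several ratios share a gene. The share of other gene pairs without overlap was not computed, so nothing is read from this count.

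All 7 genes were abundant liver transcripts. On TPM their means lay between the 94.7 and 97.4 percentiles of detected genes in the mutants and between the 92.6 and 97.1 percentiles in the controls. In the mutants the order was Hal (184 ± 52.9), Ftcd (172 ± 5.02), Aldh4a1 (137 ± 9.35), Prodh2 (125 ± 16.4), Uroc1 (94 ± 11.4), Amdhd1 (88.5 ± 11.9) and Prodh (75.5 ± 5.75 TPM). Neighbours whose ranges did not overlap were Ftcd with Aldh4a1 and Prodh2 with Uroc1, and the other neighbours overlapped. In the controls the order was Ftcd (197 ± 7.38), Aldh4a1 (177 ± 7.61), Uroc1 (139 ± 19.9), Prodh2 (125 ± 16), Hal (94.1 ± 19.5), Amdhd1 (79.7 ± 13.6) and Prodh (66 ± 5.13 TPM). There the ranges of Ftcd, Aldh4a1 and Uroc1 were separate from each other, and those of the lower neighbours overlapped. By mean TPM Hal thus came before the others in the mutants, though in mutant replicate 2 it had 125 TPM, under Ftcd (175) and Aldh4a1 (127), and it came below Ftcd, Aldh4a1, Uroc1 and Prodh2 in the controls.

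Summed over the 4 histidine genes, TPM was 544, 463 and 611 in mutant replicates 1 to 3, against 445, 529 and 557 in control replicates 1 to 3, and the groups overlapped. On CPM the same sum was 1252, 1146 and 1446 in the mutants, against 707, 857 and 883 in the controls, and the groups did not overlap. Hal made up 36.8%, 27.1% and 37.3% of the TPM sum in the mutants and 16.7%, 17.9% and 20.3% in the controls, with no overlap. Uroc1 made up 17.5 ± 0.748% in the mutants and 27.2 ± 1.4% in the controls, again without overlap, and Amdhd1 16.4 ± 0.569% and 15.5 ± 0.956% (SD, n = 3 each). For the 3 proline genes the TPM sums were 341, 307 and 366 in the mutants and 353, 366 and 386 in the controls, and the groups overlapped. On CPM the proline sums were 744, 733 and 804 in the mutants, against 562, 570 and 593 in the controls, with no overlap. Within the TPM sum Aldh4a1 took 40.6 ± 0.809% in the mutants and 48.2 ± 1.14% in the controls, and Prodh 22.4 ± 1.26% and 18 ± 2.21%.

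Genes with the most similar profile were sought among tested genes by the root mean square difference of log2 CPM over the 6 libraries, each gene relative to its control mean. For Hal this was Ass1, the argininosuccinate synthase of the urea cycle, at 0.18. Mutant replicate 2 was the lowest mutant in both, with 1.03 for Ass1 and 1.10 for Hal on this log2 scale. Ass1 was picked by its likeness over these same libraries, so nothing further is read from this shared low value. The nearest gene was Uqcrc1, a subunit of respiratory complex III, for Ftcd (0.029) and Rnase4, a secreted ribonuclease, for Prodh (0.053). It was Ccn2, a secreted matricellular protein, for Prodh2 (0.06), Zfp708 for Amdhd1 (0.1), Mrpl32, a mitochondrial ribosomal protein, for Uroc1 (0.044) and Elp3, the catalytic subunit of elongator, for Aldh4a1 (0.02).

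Genes of the steps around both routes were counted in 7 lists. The lists were chosen with earlier results of these data known, so their counts are a description and no enrichment is read from them. Of 44 tested genes 16 were called higher (36.4%, against 6.64% of all tested genes) and 3 lower (6.82%, against 6.82%), and 25 were not called, with a median log2 fold change of 0.19 against 0 over all tested genes. At library totals 6 were called higher and 10 lower, and in limma on log2(TPM + 1) 3 higher and 17 lower. Over all genes 293 were called higher and 4508 lower of 14286 at library totals, and 199 higher and 7322 lower of 11567 in limma. Without control replicate 2 the higher calls were 7, and without mutant replicate 1 they were 8.

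The enzymes that dispose of glutamate, the end product of both routes, had 5 of 8 called higher and 0 lower, with a median log2 fold change of 0.43. Got1, the cytosolic aspartate transaminase, had 468, 164 and 383 CPM in mutant replicates 1 to 3, against 68.4, 71.3 and 53.4 CPM in control replicates 1 to 3. It rose in the mutants (log2 fold change 2.39 ± 0.34, edgeR adjusted p = 0.00408). Mutant replicate 2 was the lowest mutant, as for Hal, and also for Gls2 and Rxra, though not for Ftcd. Gls2, the liver glutaminase, rose by 1.76 ± 0.14 on the log2 scale (adjusted p = 4.2e-04) and Gpt, the alanine transaminase, by 0.85 ± 0.09 (adjusted p = 9.1e-04). In limma on log2(TPM + 1) Got1 and Gls2 stayed called. Gpt had 0.26 there and was not called with the filter on low values (adjusted p = 0.0581) but was called without it (adjusted p = 0.039).

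Among transporters that can carry histidine, proline or related amino acids, 3 of 5 were called higher and 0 lower (median log2 fold change 0.71), and Slc6a20a was listed at 0 in all libraries. Slc38a3, the hepatic transporter of glutamine and histidine, averaged 1386 ± 71.5 CPM in the mutants and 847 ± 61.1 CPM in the controls (SD, n = 3 each; log2 fold change 0.71 ± 0.10, edgeR adjusted p = 0.00307). Its relatives Slc38a2 (1.02 ± 0.17, adjusted p = 0.00794) and Slc38a4 (0.71 ± 0.13, adjusted p = 0.0122) rose as well. The call of Slc38a4 was lost without control replicate 2 (0.67, edgeR adjusted p = 0.0512) and at library totals (0.31, edgeR adjusted p = 0.1). None of the 3 was called on TPM, where the log2 fold changes were 0.12, 0.40 and 0.11.

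In the list of hydroxyproline and glyoxylate handling, not all of which lies downstream of Prodh2, 3 of 6 genes were called higher and 0 lower. The median log2 fold change was 0.32. Agxt, the peroxisomal enzyme that turns glyoxylate into glycine, averaged 272 ± 39.7 CPM in the mutants and 114 ± 5.08 CPM in the controls, and rose by 1.25 ± 0.12 on the log2 scale (edgeR adjusted p = 8.0e-04). Hoga1, the aldolase that splits the hydroxyproline product, rose by 0.45 ± 0.09 (adjusted p = 0.0132), and the glyoxylate reductase Grhpr by 0.35 ± 0.09 (adjusted p = 0.0396). On TPM Hoga1 turned to -0.14 and Grhpr to -0.25. The call of Grhpr was lost on leaving out any one library (adjusted p from 0.0542 to 0.132), and that of Hoga1 without control replicate 2 (0.42, adjusted p = 0.0545) or mutant replicate 1 (0.45, adjusted p = 0.0535). Neither was called at library totals, with or without Mup genes, and Grhpr was not called with the replicate block.

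Around proline itself, 1 of 5 genes of proline synthesis and ornithine conversion was called higher and 1 lower (median log2 fold change 0.06). Oat, which makes the proline intermediate from ornithine, averaged 1668 ± 238 CPM in the mutants and 907 ± 186 CPM in the controls and rose by 0.88 ± 0.17 on the log2 scale (edgeR adjusted p = 0.014). It had 0.48 at library totals and 0.29 in limma on log2(TPM + 1), and was called in neither. Aldh18a1, which makes the same intermediate from glutamate, had 0.419, 1.02 and 0.484 CPM in mutant replicates 1 to 3, against 2.52, 1.66 and 6.82 CPM in control replicates 1 to 3. It fell by 2.51 ± 0.61 on the log2 scale (adjusted p = 0.0319), but without control replicate 3, the highest library, it had -1.70 and was not called (adjusted p = 0.105). It was not called either without control replicate 1 (-2.72, adjusted p = 0.054), mutant replicate 1 (-2.28, adjusted p = 0.104) or mutant replicate 3 (-2.35, adjusted p = 0.081). Nor was it called with the replicate block (-2.34, edgeR adjusted p = 0.0641) or in limma on TPM with no filter (-1.17, limma adjusted p = 0.0561). Of 4 peptidases that release proline or other residues from peptides, 1 was called higher and 0 lower (median 0.13). This was Lap3 (0.48 ± 0.09, adjusted p = 0.014), which lost its call without control replicate 2 (0.43, adjusted p = 0.0566) or mutant replicate 1 (0.43, adjusted p = 0.0609) and had -0.11 on TPM. Lap3 was not called at library totals, with or without Mup genes.

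Among the folate enzymes that take up the one-carbon unit released by Ftcd, 3 of 12 were called higher and 1 lower, with a median log2 fold change of 0.11. Aldh1l1, which oxidises formyl-tetrahydrofolate, averaged 861 ± 165 CPM in the mutants and 554 ± 4.27 CPM in the controls and rose by 0.64 ± 0.14 on the log2 scale (edgeR adjusted p = 0.0206). Without any one control or mutant replicate 1 its adjusted p was 0.0632 to 0.0661. The call was also lost at library totals (0.24, edgeR adjusted p = 0.201) and at library totals without Mup genes (0.42, edgeR adjusted p = 0.0545). In limma on log2(TPM + 1) it was lost too, with a log2 fold change of 0.02 (limma adjusted p = 0.914). The hydroxymethyltransferase Shmt1 rose by 0.39 ± 0.09 (adjusted p = 0.0315) and Mthfd1, which interconverts folate forms, by 0.46 ± 0.11 (adjusted p = 0.0319). Both calls were lost without any one library except mutant replicate 2 (adjusted p from 0.0737 to 0.105), and on TPM the log2 fold changes were -0.21 for Shmt1 and -0.14 for Mthfd1. Neither gene was called at library totals, with or without Mup genes, and Mthfd1 was not called with the replicate block. Of 4 tested genes on side routes of histidine 0 were called higher and 1 lower (median -0.60). This was Hnmt, which methylates histamine, with 14.6 ± 2.22 CPM in the mutants and 29.4 ± 2.12 CPM in the controls (log2 fold change -1.01 ± 0.14, adjusted p = 0.00323).

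**Figure D4:**
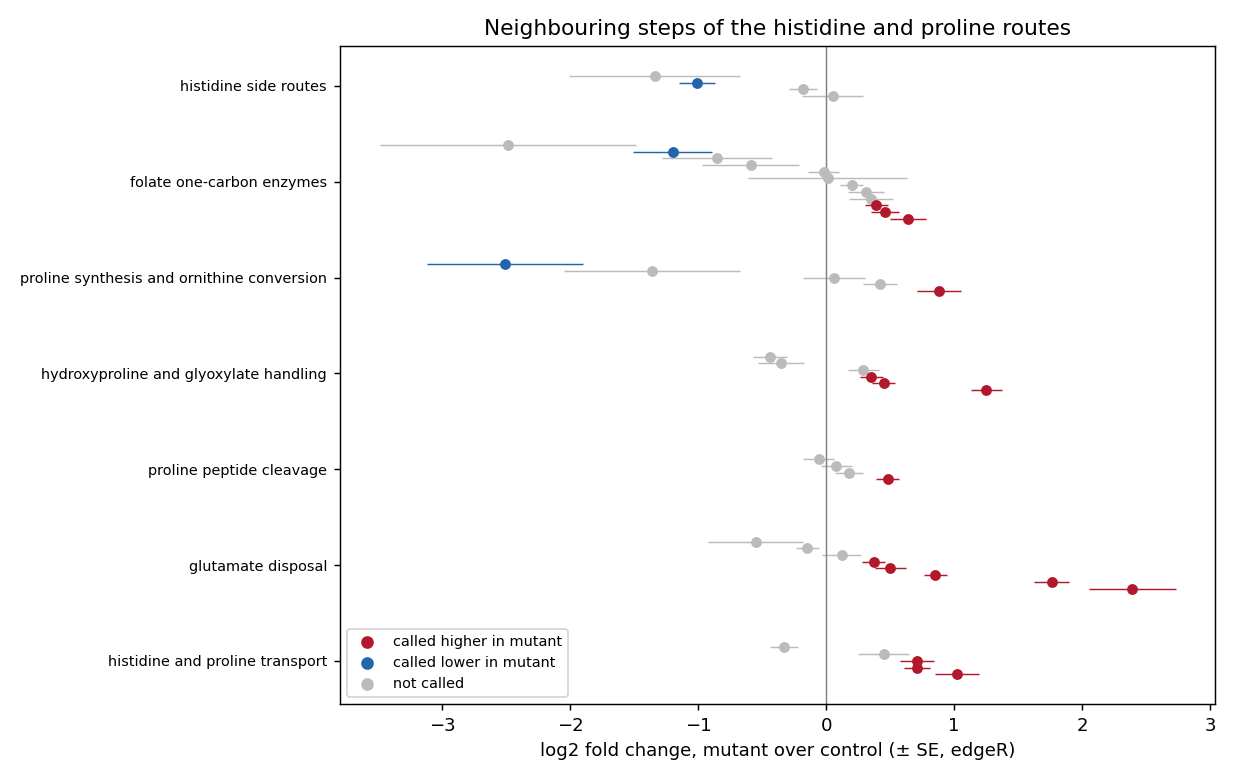
Log2 fold change of mutant over control with its SE (x axis, edgeR after TMM) for the tested genes of the 7 neighbouring lists (y axis), coloured by call. The glutamate list has 5 of its 8 genes called higher and 0 lower, and the lowest called gene is Aldh18a1 at -2.51.

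Hepatocyte markers were present in every library, with summed TPM of 58026 to 63853 in the mutants and 70670 to 82746 in the controls, and 4 of 6 were called higher after TMM. Of 10 periportal markers, which mark the zone where Hal is known to be high, 8 were called higher and 1 lower. Of 10 pericentral markers 4 were called higher and 0 lower. For all marker lists the share of all tested genes was 6.64% higher and 6.82% lower. The periportal list holds Gls2 and Ass1, both named above, and Alb of the hepatocyte list. The pericentral list holds Glul and Oat, counted above, and Cyp2e1 of the hepatocyte list. These counts are thus not separate from each other or from those above. Summed TPM, which albumin dominates in the periportal list, was 32466 to 40625 in the mutants and 45107 to 55816 in the controls for periportal and 9678 to 10627 and 10122 to 11620 for pericentral markers. For other cell types the summed TPM, a scale on which the median of all genes was also below 0, was 39.5 to 81.9 in the mutants and 130 to 171 in the controls for macrophages (0 of 8 called higher, 2 lower). It was 61.9 to 68.6 and 187 to 205 for stellate cells and fibroblasts (0 of 7 higher, 6 lower), 27.5 to 38.6 and 48.6 to 94.1 for endothelium (0 of 6 higher, 2 lower) and 22.3 to 35 and 76.5 to 113 for biliary epithelium (1 of 5 higher, 1 lower). For lymphocytes it was 1.85 to 3.13 and 5.05 to 6.55 (0 of 6 called), with Cd3e and Ms4a1 under 1 TPM throughout. For each of these sums the exact permutation p was 0.1, two-sided and the smallest possible with 3 libraries against 3, except for the pericentral one (exact permutation p = 0.4). Erythroid markers had 858 to 1502 TPM in the mutants and 1494 to 2361 TPM in the controls (1 of 5 higher, 0 lower; exact permutation p = 0.2). Kidney tubule markers, of a tissue that also expresses proline and glyoxylate enzymes, reached at most 0.1 TPM in the mutants and 0.043 TPM in the controls (exact permutation p = 0.4), with Slc12a1, Kap and Slc22a6 at 0. In bulk liver, fewer cells of a type and less RNA per cell cannot be told apart, and the part that cell make-up or zonal genes have in the enzyme values was not tested.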

How the data were processed

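Liver RNA was sequenced from poly(A)-enriched libraries, per the labels' protocols, and cutadapt, STAR and the build mm10 are named in the submitters' processing notes. No source used here gives the counter, annotation release or strandedness. Deposited by the authors were estimated counts and TPM values for each gene and library. 0% of nonzero estimated counts were whole within 1e-06, and the ratio of estimated count to deposited TPM was a fixed factor per gene and library (largest relative deviation 5.72e-10 over 10983 genes), so both tables hold the same estimates on different scales, and counting error is only approximated.

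After rounding of the deposited estimated counts, R 4.3.3 with edgeR 4.0.16 gave the main test (filterByExpr, TMM, quasi-likelihood F-test on group, Benjamini-Hochberg over 14286 genes). The procedure was also run on simulated data with as many raised as lowered genes and a common dispersion. That run does not bear on how the results depend on scaling. SE come from the F statistic. CPM and TPM are mean ± SD, n = 3. Alternatives were RLE size factors, library totals, library totals without the 22 Mup genes (chosen after seeing the data), no filter, DESeq2 1.42.0, robust fitting, a replicate block, leaving out each library, and limma 3.58.1 on log2(TPM + 1) or log2(TPM + 0.1), keeping genes at 1 TPM or more in 3 libraries, or all genes. Gene identifiers matched GENCODE mouse release 21 in 99.4% of cases, version ignored. No libraries were near-duplicates (chi-square at least 47.2 per gene). The 7 enzymes and all lists were chosen with earlier results of these data known. Named were the 7 enzymes, Rxra, up to 3 called genes per neighbouring list with the smallest p, and the nearest profile of each enzyme among genes of at least 1 CPM in a group without a predicted symbol. Values of some list members are not reported here.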

Additional observations from a re-analysis of the deposited data

How the results depend on the processing

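Hal was the steadiest of the 7 enzymes: its log2 fold change stayed positive under all 16 alternatives and its call was lost in 1, limma on TPM with no filter. The 5 enzymes called higher were 5 with RLE size factors, no filter, DESeq2, robust fitting and the replicate block. They were 2 at library totals, 3 at library totals without Mup genes, 1 in limma on log2(TPM + 1) or log2(TPM + 0.1) and 0 in limma with no filter, and 3 to 5 on leaving out a library. Called lower were 2 enzymes in limma on log2(TPM + 1) or log2(TPM + 0.1) and 3 with no filter. Over all genes those fits called 7322 of 11567, 7085 of 11567 and 6975 of 22796 lower, so a lower call there is not particular to the enzymes. Over all genes, higher and lower calls were 949 and 974. They were 293 and 4508 at library totals, 405 and 1968 without Mup genes, 199 and 7322 on log2(TPM + 1), 187 and 7085 on log2(TPM + 0.1), 184 and 6975 with no filter in limma, and 426 to 758 and 430 to 756 on leaving out a library. Of the neighbouring genes, 16 higher and 3 lower, 6 and 10 were called at library totals, 8 and 7 without Mup genes, 3 and 17 on log2(TPM + 1), 3 and 16 on log2(TPM + 0.1), 4 and 16 with no filter in limma, 7 to 15 and 1 to 3 on leaving out a library, and 5 lower with DESeq2 or with no filter.

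Directions turned as follows, and the cause was not tested. At library totals the log2 fold changes were -0.37 for Uroc1, -0.17 for Aldh4a1, -0.0045 for Shmt1, -0.05 for Grhpr and -0.28 for Lta4h, and without Mup genes -0.18 for Uroc1 and -0.10 for Lta4h. Uroc1 also ran from -0.08 without control replicate 1 (and -0.06 without mutant replicate 3) to 0.11 without control replicate 2. On log2(TPM + 1), with the filter and without it, the values were -0.56 for Uroc1, -0.19 for Ftcd, -0.37 for Aldh4a1, -0.21 for Shmt1, -0.14 for Mthfd1, -0.14 for Hoga1, -0.25 for Grhpr, -0.11 for Lap3, -0.46 for Lta4h and -0.20 for Rxra. On log2(TPM + 0.1) they were -0.56 for Uroc1, -0.20 for Ftcd, -0.37 for Aldh4a1, -0.21 for Shmt1, -0.15 for Mthfd1, -0.15 for Hoga1, -0.25 for Grhpr, -0.11 for Lap3, -0.48 for Lta4h and -0.20 for Rxra.

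The titles number the libraries of both groups, but same-numbered libraries did not deviate together (correlations 0.0167, -0.00322 and 0.0634), so the numbers were not taken as pairs. With the replicate block 775 genes were called higher and 783 lower, among them 5 of the 7 enzymes, and 13 and 3 of the neighbouring genes.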
